A study of Mus musculus with 12 samples.

Results

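The interferon-stimulated genes examined here are a fixed list of 39 genes that cells switch on in response to interferon, and they were read in mouse liver on 12 arrays that read 18193 named genes. The list was chosen by gene symbol from the biology of the interferon response and not from the array values, although results of these data were already known when it was written. Of the 39 genes, 37 were read by 57 probe sets that name them alone. Isg15 was not read because its probe set also names another gene, and Ifi44 was not read because the probe annotation does not list it. All mice were male C57BL/6 on standard diet, young adult at the start. The study's methods describe more mice in each exposed group than there are arrays, and nothing ties an array to an animal. The groups were 4 liver samples of mice that breathed secondhand smoke (SHS) for 4 months and then clean air for 1 month (SHS4m+1m recovery, replicates 70 to 73), 4 of mice taken directly after the 4 months of smoke (SHS4m, replicates 66 to 69), and 4 of controls sham-exposed to filtered air (replicates 1 to 4). The study's methods describe control mice with and without a recovery period, and the labels do not say which kind the 4 control arrays hold. The smoke came from burning reference research cigarettes and reached the whole body. The comparisons ask how the genes stood in the liver at the end of exposure, and how they stood after the smoke was withdrawn.

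Interferons are cytokines that cells release on sensing viral or other foreign nucleic acid (type I and type III) or that activated T and NK cells release (type II). Their receptors signal through Janus kinases to STAT proteins. Type I interferon acts on its target genes mainly through the interferon-stimulated response element (ISRE), which a complex holding Stat2 and Irf9 binds, and type II interferon acts mainly through the gamma-activated sequence (GAS). The genes induced in this way encode antiviral effectors, GTPases that attack pathogens inside cells, chemokines, RNA sensors and the machinery that loads peptides for T cells. In the liver, hepatocytes, Kupffer cells (the resident macrophages) and sinusoidal endothelial cells all respond to interferon, and a low tonic level of the response is present without infection.

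Each value is an array signal on a log2 scale, with signals under 32 raised to 32 (the floor), and a gene was read by the brightest probe set that names it alone. A difference is a difference of mean log2 signals, so 1 is a doubling, and a gene was called where the adjusted p of limma's moderated test over all 45037 probe sets was under 0.05. Of the 37 members, 33 were above the floor on every array. The other 4 (Ifit2, Oasl2, Oas2 and Mx2) were at the floor on at least 1 array, where a value shows only part of a change. Recovery replicate 72 stood apart in RNA quality: the ratio of 3′ to 5′ signal was 8.82 for actin and 4.52 for Gapdh on that array, against 3.24 to 4.64 and 2.24 to 2.95 on the other 11 arrays. The number of arrays, 4 per group, limits the precision. A few members have near-identical relatives (Ifit3 and Ifit3b, the Oas1 genes, the Gbp and Irg GTPases), and the array signal of such a gene may include the relative's transcript.

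At the end of the smoke exposure, 9 of the 37 members fell relative to controls (Ifit1, Ifit2, Ifit3, Oasl2, Bst2, Cxcl9, Cxcl10, Iigp1 and Irgm1) and none rose. By the same rule, 3.74% of all 18193 genes were called lower and 3.73% higher. The median difference over the members was -0.50, with 34 of 37 below 0, beside a median of -0.01 over all genes with 51.1% below 0. All 4 SHS4m arrays lay below all 4 control arrays for 11 members and above them for none, which held for 8.31% (below) and 7.24% (above) of all genes. After 1 month in clean air 2 members were lower than controls (Iigp1 and Irgm1) and none was higher, where 1.14% of all genes were called lower and 1.37% higher. The median difference from controls was -0.06 and 22 of 37 differences were below 0. The recovery arrays all lay below the controls for 2 members and above them for 1 (Psmb10), which held for 4.76% (below) and 4.8% (above) of all genes. Relative to SHS4m, 6 members rose in recovery livers (Ifit3, Oasl2, Cxcl9, Cxcl10, Iigp1 and Igtp) and none fell, where 2.01% of all genes were called higher and 1.68% lower. The median of this difference was 0.42, with 32 of 37 above 0. The recovery arrays all lay above the SHS4m arrays for 12 members and below them for none, which held for 6.21% (above) and 5.1% (below) of all genes. The study lists Ifit1, Cxcl9 and Cxcl10 among the genes it picked from these arrays, so their direction is not independent evidence. The comparisons share arrays: both exposed groups were set against the same 4 controls, and the SHS4m arrays enter 2 of the comparisons. The median of -0.50 became -0.31 over all probe sets of the members and -0.35 without SHS4m replicate 67, and the count of 9 became 5 without SHS4m replicate 67 or without control replicate 4. The count of 6 in recovery livers became 2 without SHS4m replicate 67 or recovery replicate 73, and 3 without SHS4m replicate 68 or 69 or recovery replicate 71 or 72. The count of 2 in recovery livers became 0 without control replicate 1 or 4 or recovery replicate 71 or 72, and 1 without any other array. In these bulk samples, fewer cells of a type and less RNA per cell cannot be told apart.

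**Figure D1:**
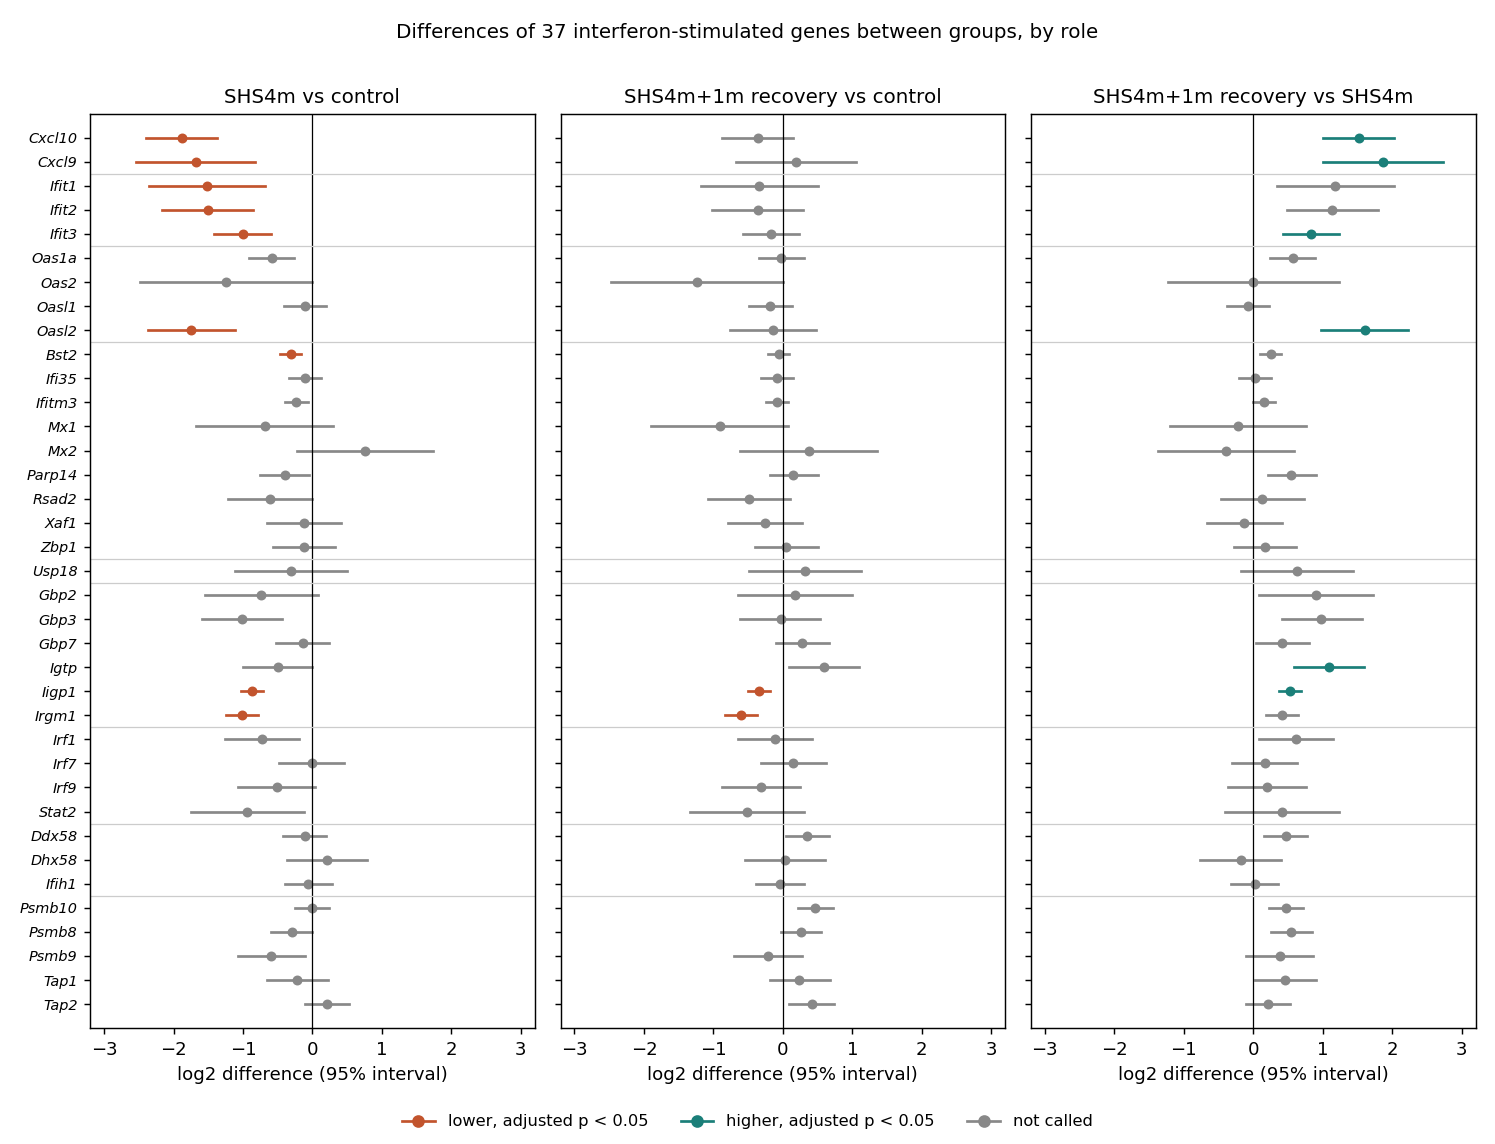
Differences in mean log2 signal (points) with unadjusted 95% intervals from limma (lines) for the 37 members read, grouped by role between the grey lines, in SHS4m vs control, SHS4m+1m recovery vs control and SHS4m+1m recovery vs SHS4m (n = 4 arrays per group). In SHS4m vs control 34 of 37 points lie left of 0 and 9 are called lower, in recovery vs control 2 are called lower, and in recovery vs SHS4m 6 are called higher.

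The DNA around the start of each gene was searched for the elements through which interferon acts. RefSeq promoter windows on GRCm38.p6, each running from 250 bases before to 50 bases after an annotated transcript start, were matched for 30 of the 39 members, which have 34 windows. The core of the ISRE, GAAANNGAAA (TTTCNNTTTC on the other strand), was in 16 of the 34 windows (47.1%) and in 3.44% of all 32851 windows of the annotation. The core of the GAS, TTCNNNGAA, which reads the same on both strands and can overlap the ISRE core, was in 9 of the member windows (26.5%) and in 8.3% of all windows. The members called lower in SHS4m livers have 9 windows from 8 genes, as Iigp1 has no window. Of these 9 windows, 5 held the ISRE core (Bst2, Cxcl10, Ifit1, Ifit3 and Irgm1). No window of Ifit2, Oasl2 or Cxcl9 held it. Among members that were read and not called, 10 of 23 windows held the ISRE core. The GAS core was in 2 of the 9 windows of called members (22.2%) and in 7 of these 23 (30.4%). The windows of 4 called genes are shown because each carries the ISRE core and these genes have the values given after them: a chemokine, a pair of RNA-binding antiviral proteins and a GTPase. They lie at chr5:92348840-92349139 on the minus strand (Cxcl10), chr19:34640639-34640938 on the plus strand (Ifit1), chr19:34583279-34583578 on the plus strand (Ifit3) and chr11:48871371-48871670 on the minus strand (Irgm1). Each is read 5′ to 3′ along its gene, so its last 50 bases are the first bases of the transcript, and the Ifit3 window is set at a start that lies inside the annotated gene. Capitals mark each match to the ISRE core on either strand, and in Irgm1 a pair of matches overlaps.
Cxcl10: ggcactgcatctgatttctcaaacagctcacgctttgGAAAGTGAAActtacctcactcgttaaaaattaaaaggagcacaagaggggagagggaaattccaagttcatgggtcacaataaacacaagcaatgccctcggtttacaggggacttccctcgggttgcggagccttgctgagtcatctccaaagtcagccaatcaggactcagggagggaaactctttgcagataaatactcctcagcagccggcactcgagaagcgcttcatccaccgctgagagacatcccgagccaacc
Ifit1: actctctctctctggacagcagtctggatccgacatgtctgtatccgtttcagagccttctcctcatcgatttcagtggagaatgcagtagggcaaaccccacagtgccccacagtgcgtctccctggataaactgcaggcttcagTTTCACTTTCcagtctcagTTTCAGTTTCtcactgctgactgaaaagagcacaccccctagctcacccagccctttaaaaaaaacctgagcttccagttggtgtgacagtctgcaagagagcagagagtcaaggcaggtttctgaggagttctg
Ifit3: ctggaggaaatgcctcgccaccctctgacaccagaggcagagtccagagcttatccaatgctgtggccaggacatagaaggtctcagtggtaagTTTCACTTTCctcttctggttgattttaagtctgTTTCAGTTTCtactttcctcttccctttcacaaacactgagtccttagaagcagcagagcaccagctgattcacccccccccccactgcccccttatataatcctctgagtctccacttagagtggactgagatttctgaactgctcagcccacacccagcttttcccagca
Irgm1: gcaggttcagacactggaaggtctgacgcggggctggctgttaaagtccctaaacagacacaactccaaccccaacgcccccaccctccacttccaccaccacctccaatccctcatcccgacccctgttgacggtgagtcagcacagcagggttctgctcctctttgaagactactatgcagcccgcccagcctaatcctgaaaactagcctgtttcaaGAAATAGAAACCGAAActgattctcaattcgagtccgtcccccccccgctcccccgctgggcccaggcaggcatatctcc
The match in Cxcl10 begins 213 bases before the start. Those in Ifit1 begin 104 and 85 bases before it and those in Ifit3 156 and 122 bases before it, all on the other strand. Those in Irgm1 begin 30 and 24 bases before it. A match is a description of the letters, and binding was not measured.

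**Figure D2:**
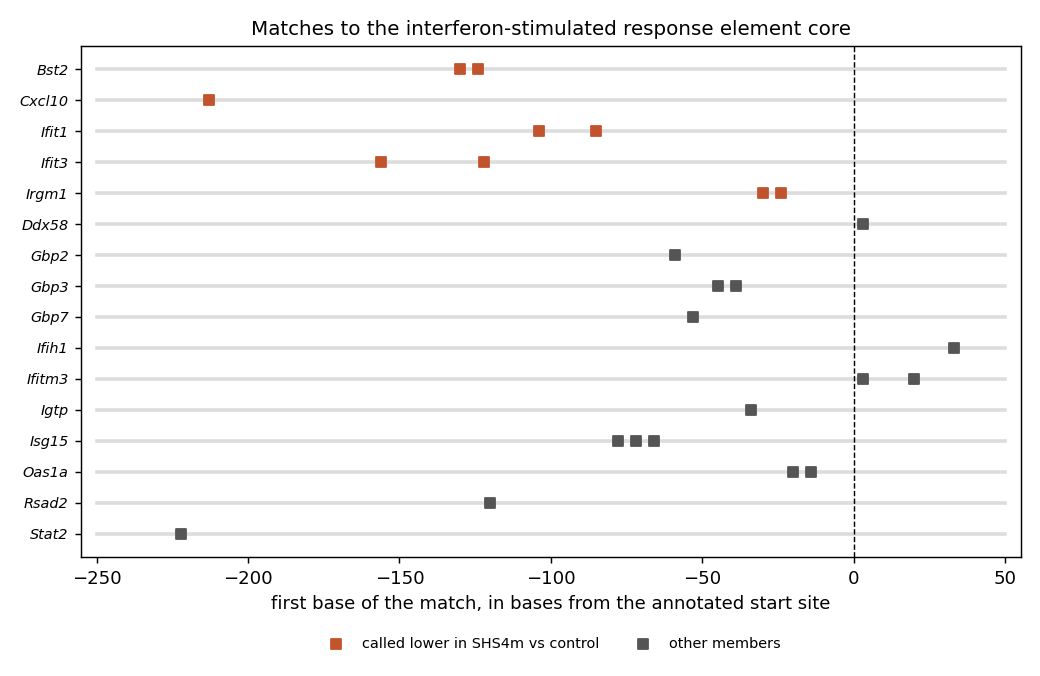
Position of each match to the ISRE core (squares, first base of the match) relative to the annotated start site at 0 (dashed line) in the 16 members whose window holds one, with orange for members called lower in SHS4m vs control and grey for the others. Each grey bar is a window running from 250 bases before to 50 bases after the start. Matches lie before the start in most genes, between 213 and 24 bases before it in the 5 called ones.

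Both chemokines of the list fell in SHS4m livers. Cxcl10, a ligand that draws activated T and NK cells through the receptor Cxcr3, gave log2 signals of 8.08, 7.72, 7.64 and 8.01 on the recovery arrays, 6.29, 6.16, 6.12 and 6.79 on the SHS4m arrays, and 8.74, 8.01, 7.74 and 8.38 on the control arrays. Every SHS4m array was below every array of the other groups, while recovery and control arrays overlapped. The mean was 1.88 lower in SHS4m livers than in controls on the log2 scale (difference -1.88, SE 0.227, 3.68-fold lower, adjusted p = 0.00217). In recovery livers it was 1.52 above SHS4m (adjusted p = 0.00958), and its difference from controls was -0.36 (95% interval -0.87 to 0.15, adjusted p = 0.594). Cxcl9, which acts on the same receptor and is induced mainly by type II interferon, gave 9.99, 10.10, 9.25 and 9.86 on the recovery arrays, 8.96, 7.39, 7.50 and 7.85 on the SHS4m arrays, and 10.00, 9.40, 8.93 and 10.09 on the control arrays. SHS4m replicate 66 reached the level of control replicate 3, and the other SHS4m arrays were lower than all controls. The difference was -1.68 in SHS4m livers relative to controls (SE 0.384, 3.21-fold lower, adjusted p = 0.0344) and 1.87 in recovery livers relative to SHS4m (adjusted p = 0.037). Recovery livers differed from controls by 0.19 (95% interval -0.67 to 1.05). The other Cxcl9 probe set gave differences of -1.13 (adjusted p = 0.0507) and 1.30 (adjusted p = 0.0455) in the same comparisons. The Cxcl10 calls held without any 1 array. The Cxcl9 call against controls was lost without SHS4m replicate 67, 68 or 69, control replicate 1, 2 or 4, or recovery replicate 70 or 73 (adjusted p 0.0504 to 0.092). That against SHS4m was lost without SHS4m replicate 67, 68 or 69, control replicate 1 or 2, or any 1 recovery array (0.0502 to 0.0967).

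**Figure D3:**
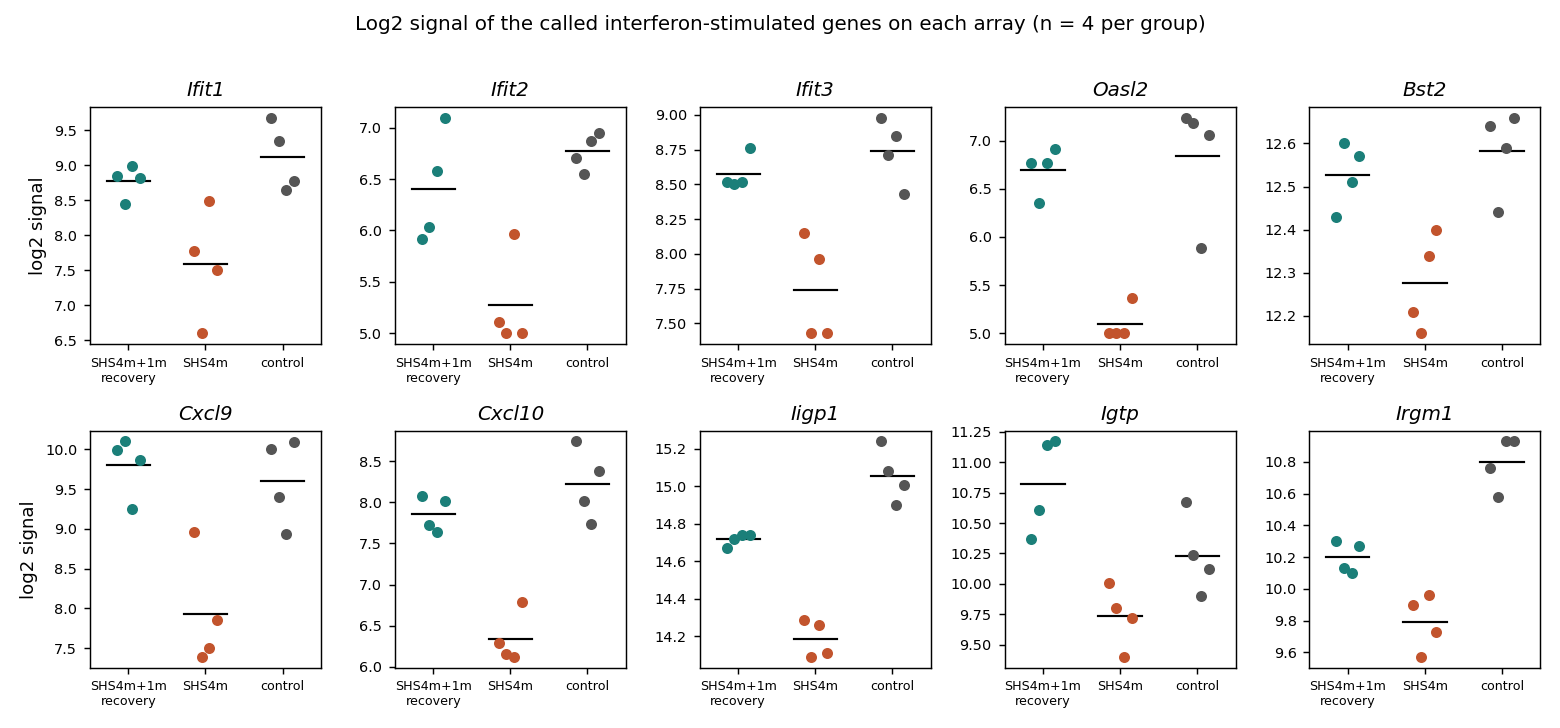
Log2 signal on each array (points) with the group mean (line) for the 10 members called in at least 1 comparison, in SHS4m+1m recovery, SHS4m and control livers (n = 4 each), each panel with its own axis. The SHS4m points lie below both other groups without overlap in the panels of Ifit3, Oasl2, Bst2, Cxcl10, Iigp1 and Irgm1, and the recovery points of Iigp1 and Irgm1 lie between the SHS4m and control points.

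The 3 Ifit genes of the list, whose proteins bind viral RNA and block its translation, fell in SHS4m livers. Ifit1 gave 8.85, 8.44, 8.99 and 8.81 on the recovery arrays, 7.77, 6.60, 8.49 and 7.50 on the SHS4m arrays, and 9.68, 9.35, 8.64 and 8.77 on the control arrays. The SHS4m arrays were all below the controls, with replicate 67 the lowest and replicate 68 close to control replicate 3. Its difference in SHS4m livers was -1.52 (SE 0.375, 2.87-fold lower, adjusted p = 0.0477), and recovery livers stood 1.18 above SHS4m without passing the threshold (adjusted p = 0.16). Ifit2, a partner of Ifit3 that also takes part in cell death, gave 5.92, 6.03, 6.58 and 7.10 on the recovery arrays, 5.11 and 5.97 on SHS4m replicates 66 and 68 with the floor on replicates 67 and 69, and 6.71, 6.55, 6.87 and 6.95 on the control arrays. All SHS4m arrays were below all controls, and with 2 of them at the floor the difference of -1.50 (SE 0.292, adjusted p = 0.0179) may understate the change. Ifit2 in recovery livers was 1.14 above SHS4m (adjusted p = 0.0839). Ifit3, which stabilises Ifit1 on RNA in human cells, gave 8.52, 8.50, 8.52 and 8.76 on the recovery arrays, 8.15, 7.43, 7.96 and 7.43 on the SHS4m arrays, and 8.98, 8.71, 8.85 and 8.43 on the control arrays. All SHS4m arrays were below both other groups. Ifit3 was 2-fold lower in SHS4m livers (SE 0.181 and 95% interval -1.41 to -0.59 on the log2 scale, adjusted p = 0.0132) and higher in recovery livers than in SHS4m by 0.83 (adjusted p = 0.0459). Against controls, the 3 genes differed by -0.17 to -0.36 in recovery livers, with adjusted p of 0.675 to 0.786. The Ifit1 call was lost on leaving out any 1 array other than SHS4m replicate 68 (adjusted p 0.0631 to 0.116), the Ifit2 call without SHS4m replicate 66 or 67 or control replicate 3 or 4 (0.0514 to 0.0524), and the Ifit3 call against SHS4m without any 1 array other than SHS4m replicate 66 or control replicate 4 (0.0567 to 0.108). The Ifit3 call against controls held without any 1 array.

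Of the 4 members from the oligoadenylate synthetase family, whose enzymes make the second messenger that switches on RNase L or resemble those that do, 1 fell in SHS4m livers. Oasl2 gave 6.77, 6.35, 6.77 and 6.91 on the recovery arrays, the floor on SHS4m replicates 66 to 68 and 5.37 on replicate 69, and 7.24, 7.18, 5.89 and 7.06 on the control arrays. All SHS4m arrays were below all arrays of the other groups, with control replicate 3 below the recovery arrays. The difference was -1.75 in SHS4m livers relative to controls (SE 0.279, adjusted p = 0.0075), 1.61 in recovery livers relative to SHS4m (adjusted p = 0.0199) and -0.14 in recovery livers relative to controls (95% interval -0.76 to 0.48). Oas1a, a catalytically active synthetase in mice, lay just outside the threshold in SHS4m livers (difference -0.58, adjusted p = 0.0504) although its SHS4m arrays, at 7.55 to 7.90, were all below its controls, at 8.03 to 8.49. Oas2 differed by -1.24 in both exposed groups with wide intervals (adjusted p = 0.375 in recovery livers and 0.284 in SHS4m livers), and control replicate 1 at 5.18 was far below the other controls at 6.80 to 7.63. Oasl1, which in mice restrains the translation of Irf7, differed by -0.18 in recovery livers and -0.11 in SHS4m livers. The Oasl2 call against controls held without any 1 array, and that against SHS4m was lost without SHS4m replicate 66, 67 or 68 or recovery replicate 72 or 73 (adjusted p 0.051 to 0.0573).

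Among the 6 interferon-inducible GTPases, which gather on the vacuoles of intracellular pathogens, 2 fell in SHS4m livers and were also lower in recovery livers. Iigp1, an immunity-related GTPase that breaks open such vacuoles, gave 14.67, 14.72, 14.74 and 14.74 on the recovery arrays, 14.29, 14.09, 14.26 and 14.11 on the SHS4m arrays, and 15.24, 15.08, 14.90 and 15.01 on the control arrays. The 3 groups did not overlap, with SHS4m lowest, recovery between and controls highest. Its difference from controls was -0.34 in recovery livers (SE 0.0717, adjusted p = 0.0448) and -0.87 in SHS4m livers (SE 0.0717, 1.83-fold lower, adjusted p = 4.34e-04), and recovery livers were 0.53 above SHS4m (adjusted p = 0.00716). The other Iigp1 probe set gave -0.17 (adjusted p = 0.522), -0.83 (adjusted p = 0.00176) and 0.66 (adjusted p = 0.00886) in these comparisons, so the recovery call rests on the brightest probe set. Irgm1, which governs the other immunity-related GTPases and autophagy, gave 10.30, 10.13, 10.10 and 10.27 on the recovery arrays, 9.90, 9.57, 9.96 and 9.73 on the SHS4m arrays, and 10.76, 10.58, 10.93 and 10.93 on the control arrays. Here too the groups did not overlap and stood in the same order. The difference of Irgm1 from controls was -0.60 in recovery livers (SE 0.104, 1.52-fold lower, adjusted p = 0.0227) and -1.01 in SHS4m livers (SE 0.104, 2.01-fold lower, adjusted p = 0.00105), while its difference of 0.41 in recovery livers relative to SHS4m did not pass the threshold (adjusted p = 0.0816). Igtp, a further immunity-related GTPase, gave 10.37, 10.61, 11.14 and 11.17 on the recovery arrays, 10.01, 9.80, 9.40 and 9.72 on the SHS4m arrays, and 10.67, 10.24, 9.90 and 10.12 on the control arrays. Its recovery arrays were above all SHS4m arrays and overlapped the controls. Igtp was 1.09 higher in recovery livers than in SHS4m (SE 0.225, adjusted p = 0.0379), with differences from controls of 0.59 in recovery livers (adjusted p = 0.271) and -0.50 in SHS4m livers (adjusted p = 0.291). Of the guanylate-binding proteins, Gbp3 lay just outside the threshold in SHS4m livers (difference -1.01, adjusted p = 0.0523, no overlap with controls), Gbp2 differed by -0.74 (adjusted p = 0.346) and Gbp7 by -0.14 (adjusted p = 0.773). The Iigp1 and Irgm1 calls in SHS4m livers and the Iigp1 call against SHS4m held without any 1 array. In recovery livers the Iigp1 call against controls held only when control replicate 3 was the array left out (adjusted p 0.0565 to 0.0981 without each of the other 11), and the Irgm1 call was lost without control replicate 1, 3 or 4 or recovery replicate 71 or 72 (0.0532 to 0.065). The Igtp call was lost without any 1 SHS4m array, control replicate 2 or 4, or recovery replicate 71, 72 or 73 (0.0573 to 0.0941).

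Of the 9 other antiviral effectors read, 1 fell in SHS4m livers. Bst2, or tetherin, which holds budding virus particles at the cell surface, gave 12.43, 12.60, 12.51 and 12.57 on the recovery arrays, 12.21, 12.16, 12.34 and 12.40 on the SHS4m arrays, and 12.64, 12.44, 12.59 and 12.66 on the control arrays. The SHS4m arrays were below all others, by a small margin. The difference was -0.31 in SHS4m livers (SE 0.0668, 1.24-fold lower, adjusted p = 0.0286), and in recovery livers it was 0.25 above SHS4m (adjusted p = 0.0972). With each array centred on its median, the Bst2 difference was -0.23 and its adjusted p 0.234. The call was also lost without SHS4m replicate 66 or 67 or control replicate 1, 3 or 4 (adjusted p 0.0725 to 0.0783). Ifitm3, a membrane protein that stops viruses entering from endosomes, had SHS4m arrays at 15.01 to 15.34 and control arrays at 15.38 to 15.53, without overlap and without passing the threshold (difference -0.23, adjusted p = 0.11). The differences of the other members of this group in SHS4m livers ran from -0.69 for Mx1 to 0.76 for Mx2, with no call. Mx1 and Mx2 encode antiviral GTPases that are defective in C57BL/6 mice, and Mx2 was at the floor on all 4 control arrays. In this group no member was called in recovery livers against either other group.

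The remaining roles held no call in any comparison. The 4 transcription factors that carry the response had differences in SHS4m livers of -0.94 for Stat2 (adjusted p = 0.212), -0.73 for Irf1 (adjusted p = 0.121), -0.51 for Irf9 (adjusted p = 0.333) and -0.01 for Irf7, the factor that amplifies type I interferon. Stat2 varied most within SHS4m, at 5.73 on replicate 68 and 7.75 on replicate 69. This spread was not seen on the other Stat2 probe set, with SHS4m arrays at 5.66 to 6.20, all below controls at 6.49 to 7.44. Its difference was -1.06 in SHS4m livers (adjusted p = 0.0908) and -0.79 in recovery livers (adjusted p = 0.289), without a call. The 3 cytosolic RNA sensors Ddx58 (RIG-I), Ifih1 (MDA5) and Dhx58 (LGP2) differed by -0.11 to 0.21 in SHS4m livers and by -0.04 to 0.35 in recovery livers. The 5 antigen processing genes were the immunoproteasome subunits Psmb8, Psmb9 and Psmb10 and the peptide transporter subunits Tap1 and Tap2. In recovery livers 4 of these 5 were above controls, with a median of 0.26 and the highest at 0.47 for Psmb10 (adjusted p = 0.0692), whose recovery arrays, at 10.78 to 11.13, were all above the controls, at 10.13 to 10.67. In SHS4m livers 4 of the 5 were below controls, with a median of -0.22. Psmb10 and Psmb8 had recovery arrays above all SHS4m arrays, with differences of 0.47 (adjusted p = 0.0621) and 0.55 (adjusted p = 0.0641). Usp18, the protease that removes Isg15 from proteins and dampens the type I receptor, differed by 0.32 in recovery livers and by -0.31 in SHS4m livers, and SHS4m replicate 67, at 7.31, was well below the other SHS4m arrays at 8.55 to 8.96.

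Most members were below their control mean on each of the SHS4m arrays. The median deviation of the 37 members from their control means was -0.16, -0.24, -0.05 and 0.11 on recovery replicates 70 to 73, -0.38, -0.66, -0.32 and -0.45 on SHS4m replicates 66 to 69, and 0.14, -0.07, 0.00 and 0.00 on control replicates 1 to 4. Each SHS4m array thus lay below each recovery and control array in this median. On the SHS4m arrays 29 to 31 of the 37 members were below their control mean, against 12 to 25 on the recovery arrays. SHS4m replicate 67 was the lowest of its group for 14 of the 35 members that had a lowest array, the most of the 4. On recovery replicate 72, which had the highest actin and Gapdh ratios, 20 members were below and 17 above their control mean. Opposite deviations of single members cancel in its median of -0.05, and the effect of RNA quality was not tested.

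**Figure D4:**
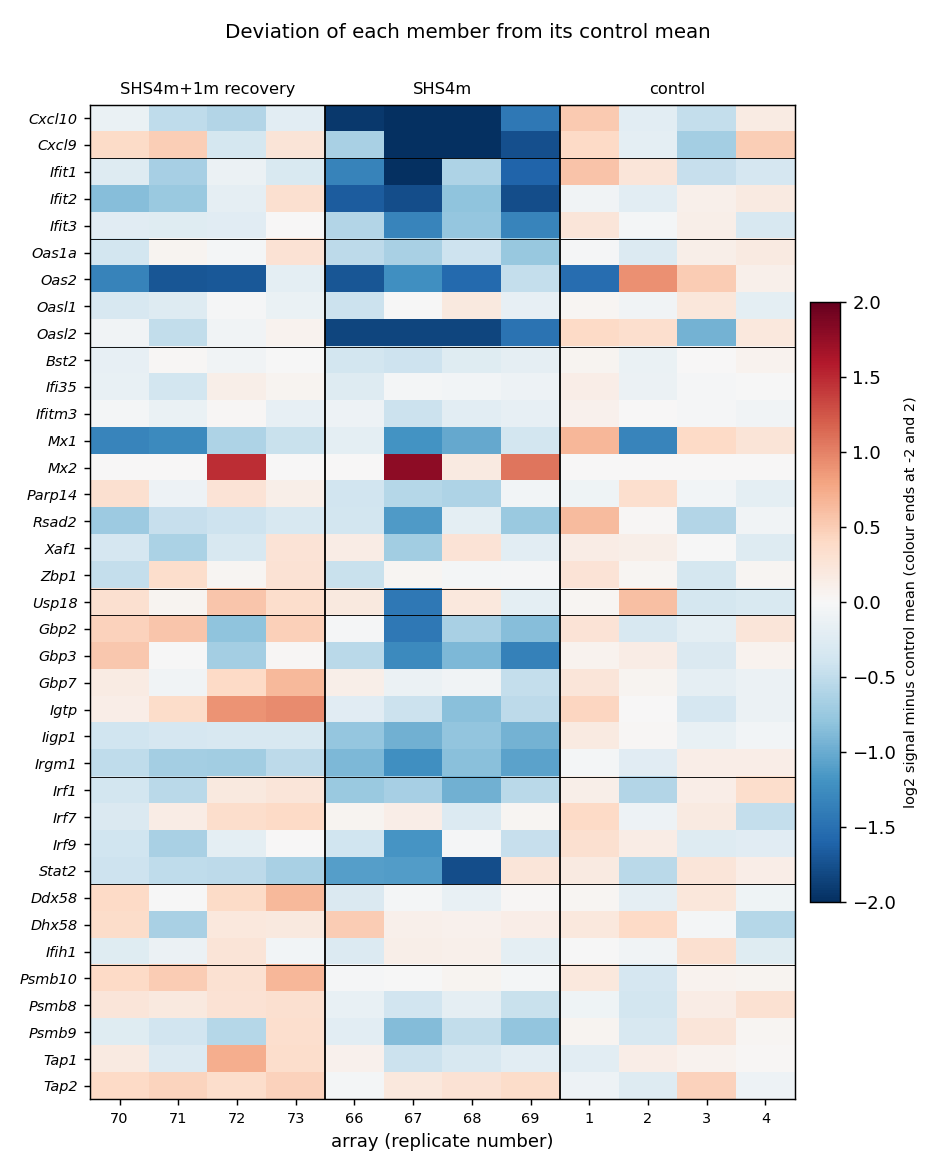
Log2 signal minus the control mean for 37 members (rows, grouped by role between the lines) on 12 arrays (columns, SHS4m+1m recovery, SHS4m and control), with blue below and red above the control mean and colours ending at -2 and 2. The columns of the SHS4m arrays are mostly blue, with 29 to 31 of 37 members below 0 on each, and replicate 67 has the lowest median at -0.66.

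Other genes of the interferon pathway were read from lists chosen by function. Of 8 ligands and receptors read none was called in any comparison, and the receptor subunits Ifnar1, Ifnar2, Ifngr1 and Ifngr2 differed by -0.09 to -0.16 in SHS4m livers. Ifng, which encodes type II interferon, was at the floor on all 12 arrays. Of 9 Janus kinase and STAT genes and their inhibitors, 1 was called, Stat3, the transducer of interleukin 6 rather than of antiviral interferon. Stat3 rose in SHS4m livers (11.83 to 12.09 against 11.26 to 11.41 in controls, difference 0.61, adjusted p = 0.00347). It was lower in recovery livers than in SHS4m (difference -0.64, adjusted p = 0.00566). This was 1 of 9 (11.1%) in both comparisons, beside 3.73% of all genes called higher and 1.68% called lower. Of 14 further nucleic acid sensors and their signalling proteins, Mavs, the mitochondrial adaptor of the RNA sensors, fell in SHS4m livers (difference -0.82, adjusted p = 0.0123) and was higher in recovery livers than in SHS4m (difference 0.84, adjusted p = 0.0199). Its probe set name marks probes that may also bind other transcripts. Mavs was 1 of 14 (7.14%) in both comparisons, beside 3.74% of all genes called lower and 2.01% called higher.

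Of the 5 further interferon-induced GTPases read of 13 listed, 4 fell in SHS4m livers (80%), beside 3.74% of all genes. The fifth, Gbp8, was not called, with differences from controls of -0.85 in SHS4m livers (adjusted p = 0.135) and -0.66 in recovery livers (adjusted p = 0.352). Its control arrays lay above all arrays of both exposed groups. Gbp2b, a guanylate-binding protein, gave 8.09, 8.46, 8.02 and 8.31 on the recovery arrays, 7.68, 5.39, 5.92 and 5.98 on the SHS4m arrays, and 8.39, 8.02, 7.70 and 8.43 on the control arrays, with SHS4m replicate 66 close to the lowest control. The difference in SHS4m livers was -1.89 (adjusted p = 0.0312) for Gbp2b, -1.79 (adjusted p = 0.00404) for Gbp6, -1.64 (adjusted p = 0.0132) for Irgm2 and -1.34 (adjusted p = 0.00111) for Ifi47. Recovery livers were above SHS4m by 1.98 for Gbp2b (adjusted p = 0.0427), 1.67 for Irgm2 (adjusted p = 0.0225) and 1.30 for Gbp6 (adjusted p = 0.0288). These were 3 of the 5 (60%), beside 2.01% of all genes. Of the 5, only Ifi47, like Irgm1, was also called lower than controls in recovery livers (difference -0.83, adjusted p = 0.0206). Such a call held for 1.14% of all genes. Gbp6 differed from controls by -0.49 in recovery livers (adjusted p = 0.457). The study lists Ifi47 and Gbp6 as changed both before and after recovery, at its own threshold and, for Gbp6, with another probe set. The 4 genes called in SHS4m livers are among those the study picked from the same arrays, so their count is not independent evidence of direction.

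Of 28 further interferon-stimulated effectors read, 2 fell (7.14%) and 1 rose (3.57%) in SHS4m livers, beside 3.74% and 3.73% of all genes, so the counts of calls are near those of all genes. All 4 SHS4m arrays lay below all controls for 8 of the 28 (28.6%) and above them for 1 (3.57%), beside 8.31% and 7.24% of all genes. The recovery arrays all lay above the SHS4m arrays for 8 (28.6%) and below them for 2 (7.14%), beside 6.21% and 5.1% of all genes. Ifi27l2a, an interferon-inducible membrane protein, differed by -1.41 (adjusted p = 0.00307), and the study picked it from these arrays too. Cmpk2, a mitochondrial nucleotide kinase encoded beside Rsad2 and likewise picked by the study, differed by -1.28 (adjusted p = 0.00573). In recovery livers Cmpk2 differed from controls by -0.84 without overlap and without a call (adjusted p = 0.0605). The study, at its own threshold, lists it as changed both before and after recovery. Ifitm2, a relative of Ifitm3, differed by 0.33 (adjusted p = 0.0126) and was lower in recovery livers than in SHS4m (difference -0.27, adjusted p = 0.0438). The median over the list was -0.30 in SHS4m livers, with 23 of 28 below 0. In recovery livers Herc6, the ligase that attaches Isg15 in mice, was lower than controls (difference -0.57, adjusted p = 0.0479), and Phf11d was higher than in SHS4m (difference 0.78, adjusted p = 0.0182). Each was 1 of 28 (3.57%), beside 1.14% and 2.01% of all genes. The Ifitm2 call against SHS4m was also 1 of 28 (3.57%), beside 1.68%. Of 9 further genes of class I antigen presentation, 1 was called, Tapbp, which links the peptide transporter to class I molecules. It was higher than controls by 0.32 in recovery livers (adjusted p = 0.0358) and by 0.32 in SHS4m livers (adjusted p = 0.0183). This was 1 of 9 (11.1%) in both comparisons, beside 1.37% and 3.73% of all genes.

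Markers of the cells that a liver sample can hold were read beside these genes. Hepatocyte markers were abundant on every array, with a summed signal of 227259 to 377408 in recovery livers, 262067 to 289138 in SHS4m livers and 290034 to 336065 in control livers, and none of the 6 read was called. Of these 6, 4 were below controls in SHS4m livers, and the median difference was -0.31. All SHS4m arrays lay below all controls for 3 (Apoa1, Ttr and Cyp2e1, 50%), beside 8.31% of all genes. They lay above for 1 (Tat, difference 0.89, 16.7%), beside 7.24% of all genes. Of 8 Kupffer cell and macrophage markers, Clec4f, a receptor confined to Kupffer cells, and Lyz2, or lysozyme, fell in SHS4m livers (differences -0.51 and -0.76, adjusted p = 0.0173 and 0.0099), and the scavenger receptor Marco, which the study also picked from these arrays, rose (difference 1.90, adjusted p = 0.0137). These were 2 of 8 called lower (25%) and 1 called higher (12.5%), beside 3.74% and 3.73% of all genes. Of the 8, 7 were below controls in SHS4m livers. All SHS4m arrays lay below all controls for 6 of the 8 (75%), beside 8.31% of all genes. They lay above for 1 (Marco, 12.5%), beside 7.24% of all genes. The summed signal of the list was 14665 to 19738 in recovery livers, 13574 to 16839 in SHS4m livers and 17213 to 21104 in control livers. Clec4f was higher in recovery livers than in SHS4m (difference 0.46, adjusted p = 0.0442), 1 of 8 (12.5%), beside 2.01% of all genes. None of 8 T and NK cell markers was called, 7 of them were below controls in SHS4m livers, and their summed signal was 585 to 707 in recovery livers, 270 to 475 in SHS4m livers and 327 to 751 in control livers. In this list Cd4 was at the floor on all recovery and SHS4m arrays, and Cd3e, Nkg7 and Ncr1 were at the floor on some arrays of each group. Cd3g was at the floor on 3 SHS4m and 2 control arrays, and Gzma and Ccl5 on 1 SHS4m array each. The marker above controls in SHS4m livers was Cd8a (difference 1.09, adjusted p = 0.428). Cd8a was at the floor on 1 recovery and 1 control array, and its probe set name marks probes that may bind other transcripts too. No marker of B cells, plasmacytoid dendritic cells, neutrophils, sinusoidal endothelial cells, stellate cells or red cells was called in any comparison. The part of these cell types in the lower signal of the interferon-stimulated genes was not tested.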

How the data were processed

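Total RNA of mouse liver was hybridised to Affymetrix genome-wide mouse expression arrays. The deposited values are probe set intensities on a linear scale, which the authors made in Affymetrix Expression Console. Its version and algorithm are not given in the sources used here. The trimmed mean of each array, without 2% at each end, was about 500. Intensities below 32 were raised to 32 and log2 was taken, so folds of dim genes are understated. In limma 3.58.1 (R 4.3.3), 1 model of the 3 groups was fitted to 45037 probe sets, without 64 control probe sets, with default empirical Bayes moderation, two-sided tests and Benjamini-Hochberg adjustment over all of them. The script was tested on simulated data. Probe sets were named by the platform annotation, in which 34945 tested probe sets name 1 gene, 932 name several and 9160 are not listed. The sources do not say that each array holds RNA of a separate mouse, so p-values measure the spread between these samples, which may be in part technical. Members and lists were chosen with earlier results of these data known. Members called in any comparison are given on every array, the others as ranges, and at most 3 called genes are named per list and comparison. The GTPase list gives 4 called genes, and members near the threshold and some in the lists were named after their values were seen. Alternatives were quantile normalization, median centring, other floors, a filter on dim probe sets, fitting only the 8 arrays compared, a trended robust variance, the study's threshold (unadjusted p under 0.05 and a 2-fold change), all probe sets of a gene and leaving out each array. No array repeated the values of another. Promoter windows came from RefSeq (GRCm38.p6).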

Additional observations from a re-analysis of the deposited data

Results flagged for a closer look

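Of 30 sets of 4 arrays checked (10 called members in 3 groups), 4 held an array far from the other 3 of its group, and chance alone sets apart about 1 in 20 such sets. Ifit3 stood at 8.76 on recovery replicate 73, where the other recovery arrays were at 8.50 to 8.52. Ifit2 stood at 5.97 on SHS4m replicate 68, with the other SHS4m arrays at the floor or at 5.11. The floor shortens the spread of that set, so the chance given above does not apply to it. Oasl2 stood at 5.89 on control replicate 3, with the other controls at 7.06 to 7.24. It also stood at 5.37 on SHS4m replicate 69, but with the other 3 SHS4m arrays at the floor any value above it would have been set apart, and the chance given above does not apply to such a set.

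For 6 members the difference from controls was not the same in recovery and SHS4m livers by limma's test of recovery against SHS4m, in which the shared controls cancel. On the log2 scale the difference from controls was greater by 1.87 for Cxcl9 (adjusted p = 0.037), 1.61 for Oasl2 (adjusted p = 0.0199), 1.52 for Cxcl10 (adjusted p = 0.00958), 1.09 for Igtp (adjusted p = 0.0379), 0.83 for Ifit3 (adjusted p = 0.0459) and 0.53 for Iigp1 (adjusted p = 0.00716) in recovery livers than in SHS4m livers.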

How the results depend on the processing

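Across 17 calls of members and 19 alternative fits of each, 222 of 323 kept their call, 101 lost it and 0 changed direction. Cxcl10, Iigp1, Irgm1 and Oasl2 in SHS4m livers against controls, and Cxcl10 and Iigp1 in recovery livers against SHS4m, were called under every one of these fits. The count of 9 members lower in SHS4m livers was 5 to 9 on leaving out each array, and the median of -0.50 was -0.56 to -0.35. Over all probe sets of the members this median was -0.31. The count of 2 members lower in recovery livers than in controls was 1 with quantile normalization, with a floor of 16, with the filter on dim probe sets and at the study's threshold (Oas2). It was 0 with median centring, with a floor at the 25th percentile and with only the 8 arrays compared, and 0 to 1 on leaving out each array. The count of members higher in recovery livers than in controls, 0, was 0 to 1 on leaving out each array, with Tap2 called without control replicate 3. The count of 6 members higher in recovery livers than in SHS4m was 2 to 6 on leaving out each array. The cause of these changes was not tested. Median centring moved the median of all genes by at most 0.08. No paired analysis was possible because the groups share no replicate numbers.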
